A study of Homo sapiens with 6 samples.

Results

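The sestrins and other regulators of mTORC1, the growth-controlling kinase complex built around mTOR, were examined in cells given the compound AAPK. The set held 10 genes: SESN1, SESN2, SESN3, DDIT4, DEPTOR, TSC1, TSC2, MTOR, RPTOR and RHEB. They were chosen by name, and every probe set that names exactly 1 of them was taken, which gave 29 of the 49395 probe sets on the array and 10 of the 18132 genes. All 10 genes had at least 1 probe set, and no filter on low signal was applied.

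Expression was measured on 6 arrays, 3 from cells given AAPK and 3 from cells given the vehicle DMSO. AAPK is a code name; per the series title it inhibits both Aurora A and PLK-1, kinases that drive mitosis, and the arrays show its effect on transcripts. All 6 samples are labelled HCT-116, an established human colorectal carcinoma line, grown in RPMI medium with serum and described as high in Aurora-A and PLK-1. The treatment field is the same for every sample and reads 10 µM for 48 h, taken here as the AAPK dose; the line is the only model, and whether replicates are separate cultures is not given in the sources used here.

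The median log2 signal of the arrays lay between 6.46 and 6.47 for AAPK and between 6.48 and 6.50 for DMSO, and the correlation between arrays was 0.9976 to 0.9983 inside each group and 0.9942 to 0.9954 across groups. AURKA and PLK1, which encode the 2 kinases named in the title, rose by 0.80 and 0.21 on the log2 scale (limma adjusted p = 1.79e-06 and 0.0118).

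Several of 10 listed colon epithelial markers were near the floor of the array. EPCAM, the epithelial adhesion molecule, read 3.26 to 3.51 on the AAPK arrays and 3.20 to 3.52 on the DMSO arrays over its 3 probe sets, all among the lowest 2.4% of probe sets. CDH1, which encodes E-cadherin, read 3.96 to 5.12 with AAPK and 4.12 to 5.15 with DMSO, and VIL1, the brush border protein villin, 3.62 to 4.09 with AAPK and 3.68 to 4.33 with DMSO. The keratin genes KRT8 and KRT18 were bright, at 12.01 and 12.52 with AAPK against 11.84 and 12.44 with DMSO. VIM, which encodes the mesenchymal filament vimentin and was looked up after these values were seen, was also bright, with 12.54 in AAPK and 12.51 in DMSO. CDH2, looked up with it, was at 7.54 in AAPK and 7.56 in DMSO on the brighter of its 2 probe sets. The other read 3.54 to 3.71 with AAPK and 3.49 to 3.65 with DMSO. Of 10 colon epithelial markers, 5 lay under the 25th percentile of gene signal. CDX1 and GPA33, of the same list, were at the 51.4 and 60.8 percentile by their brighter probe sets. These markers do not all go with a colon epithelial label, and the identity of the line was not tested. The cells are therefore given here only as labelled HCT-116. The low marker levels were shared by both groups.

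Markers of other cell types were compared in the same way. The summed marker signal, as log2 of the sum over the brightest probe sets, was 8.84 to 8.93 with AAPK and 8.86 to 8.94 with DMSO for 8 fibroblast genes. It was 9.22 to 9.34 with AAPK and 9.31 to 9.35 with DMSO for 6 endothelial genes, and 9.53 to 9.63 with AAPK and 9.54 to 9.62 with DMSO for 7 blood cell genes. In limma 0 of these genes passed an adjusted p of 0.05, and 0 fibroblast, 1 endothelial and 1 blood cell gene had an unadjusted p under 0.05. The epithelial sum was 13.32 to 13.41 with AAPK and 13.23 to 13.28 with DMSO, and KRT8 was its only gene past the threshold, at 0.17 (adjusted p = 0.0402).

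mTORC1 drives protein synthesis and cell growth when amino acids, growth factors and energy are plentiful, and cells restrain it under stress. Sestrins restrain it by binding GATOR2, which otherwise holds GATOR1 off the Rag GTPases that bring mTORC1 to the lysosome; SESN2 also senses leucine. DDIT4, also known as REDD1, acts on the other arm: it activates the TSC1-TSC2 complex, which switches off RHEB, the small GTPase that turns mTORC1 on at the lysosome. DEPTOR binds mTOR and inhibits it directly, and RPTOR encodes raptor, the scaffold that brings substrates to mTOR.

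The promoters of SESN2 and DDIT4 are shown because these were the members with the largest changes. Both come from RefSeq on GRCh38.p14, on the plus strand, from 250 bases before the start of the gene to 50 bases into it. In the same build the SESN2 gene spans bases 28259518 to 28282491 of chromosome 1 and DDIT4 spans 72273924 to 72276036 of chromosome 10. The SESN2 window is chr1:28259268-28259567 and the DDIT4 window chr10:72273674-72273973. Capitals mark the CCAAT box, read as ATTGG on the reverse strand, and the core ACGTG of the hypoxia response element.
SESN2: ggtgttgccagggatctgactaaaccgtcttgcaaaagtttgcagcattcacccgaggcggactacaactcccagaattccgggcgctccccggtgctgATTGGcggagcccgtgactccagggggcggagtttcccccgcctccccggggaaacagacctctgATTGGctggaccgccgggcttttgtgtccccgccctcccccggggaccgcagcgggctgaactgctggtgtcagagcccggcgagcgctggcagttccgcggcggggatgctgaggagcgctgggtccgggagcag
DDIT4: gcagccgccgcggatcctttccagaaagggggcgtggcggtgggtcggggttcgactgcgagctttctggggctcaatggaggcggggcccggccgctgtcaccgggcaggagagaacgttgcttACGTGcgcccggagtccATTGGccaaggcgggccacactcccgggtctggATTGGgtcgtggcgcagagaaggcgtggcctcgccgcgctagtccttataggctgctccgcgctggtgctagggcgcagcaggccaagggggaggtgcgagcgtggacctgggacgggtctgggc

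Both strands were searched for 4 motifs. They were TGATGNAA, the composite site of ATF4 with C/EBP proteins, the hypoxia core ACGTG, the CCAAT box, and the FOXO site GTAAACA. SESN2 held CCAAT boxes on the reverse strand that begin 151 and 86 bases before the start, and DDIT4 held them 108 and 75 bases before it, with ACGTG at 125 bases. CCAAT stood in 34.6% of all 35116 promoter windows and ACGTG in 21.4%, with matches in 5 and 3 of the 9 members that had a window. TGATGNAA stood in 3.62% of windows and GTAAACA in 3.42%, and the letters of neither were in the SESN2 or DDIT4 window. Of 13 known ATF4 targets listed below that had a window, 4 held TGATGNAA and 0 held GTAAACA. These counts, like those of the members, take a match in any window of a gene, while the percentages are of single windows. A gene may have several windows, so the counts and percentages are not on a like base. Among members, TSC2 had TGATGNAA, 110 bases before 1 of its 2 starts, where it overlaps ACGTG matches that begin 114 and 113 bases before the start. DEPTOR was the member without a window. The matches describe letters in a short window and say nothing of binding.

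Each gene is given below by its brightest probe set, the one with the highest mean signal over all 6 arrays, from limma fitted across 18132 genes with a threshold of 0.05 on the p-value adjusted over all of them by the Benjamini-Hochberg method. Changes are AAPK minus DMSO on the log2 scale. The spread behind each p-value is that between these arrays, and it may be technical. By this measure 2 of the 10 members fell, SESN2 and DDIT4, and 3 rose by much smaller amounts, SESN1, MTOR and RHEB. Across all genes 15.4% passed the threshold, 8.11% higher in AAPK and 7.26% lower. The median log2 change was -0.01 over the 10 members and -0.02 over all genes. SESN2 and DDIT4 were also at least 2-fold lower, which with a pass held for 0.11% of all genes. The AAPK and DMSO arrays did not overlap for 6 of the 10 members, against 31.9% of all genes.

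**Figure D1:**
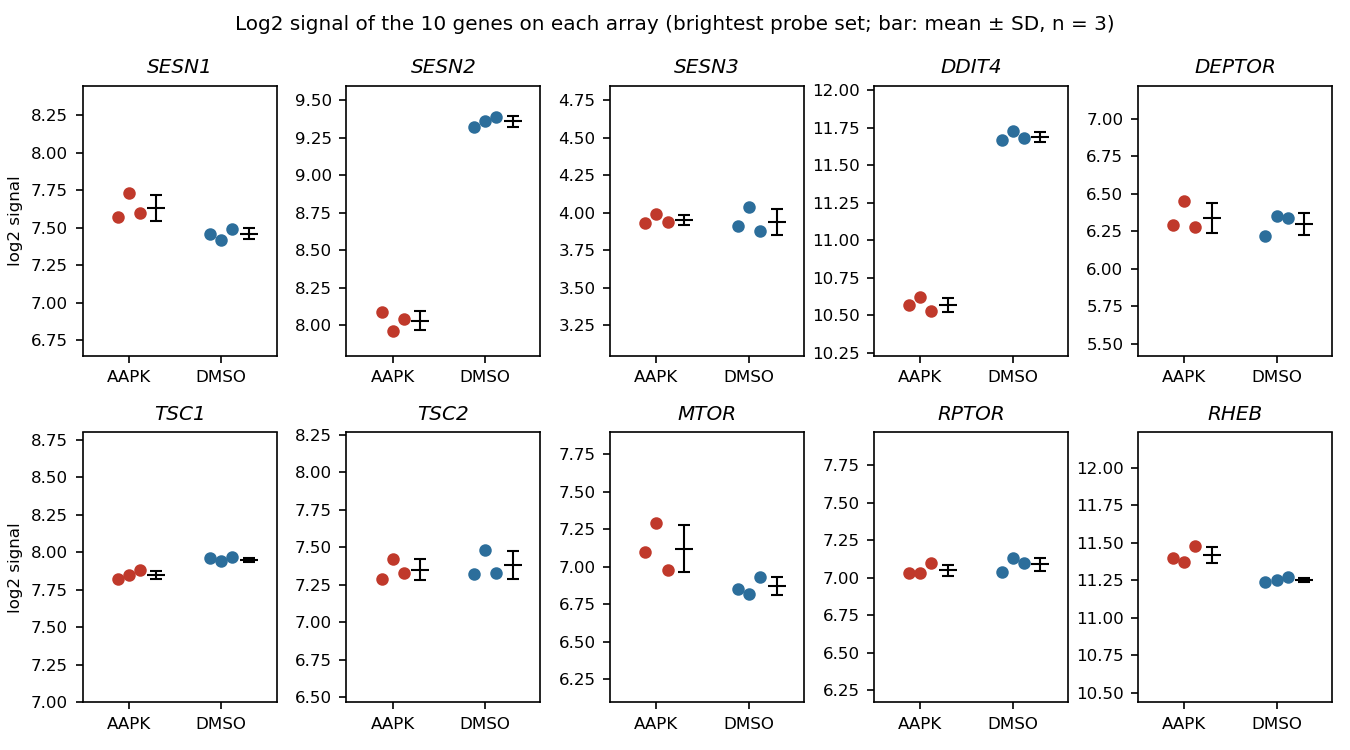
Log2 signal of each gene's brightest probe set on the 3 AAPK arrays (red, left) and the 3 DMSO arrays (blue, right), with the mean and SD beside them (n = 3); all panels span the same range of log2 units. SESN2 and DDIT4 sit more than 1 log2 unit lower with AAPK, and the other 8 genes differ by 0.26 or less.

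SESN2 fell to 8.09, 7.96 and 8.04 log2 units on the AAPK arrays, against 9.32, 9.36 and 9.39 on the DMSO arrays. The groups were far apart and every AAPK array was lower. The mean was 8.03 ± 0.065 with AAPK and 9.36 ± 0.036 with DMSO (SD, n = 3 each), a log2 change of -1.33 ± 0.049 (SE) and a 2.51-fold lower signal (adjusted p = 2.53e-07). It ranked 7 of 18132 from the lowest log2 change. Its other probe set read 7.01, 6.97 and 6.89 with AAPK and between 7.97 and 8.02 on the 3 DMSO arrays, and fell by 1.04 (adjusted p = 1.66e-06 over 44988 probe sets). On arrays of whole cultures, fewer cells that express a gene and less RNA per cell cannot be told apart.

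The other sestrins had no such fall. SESN1, the family member first known as a p53 target, read 7.57, 7.73 and 7.60 with AAPK, against 7.46, 7.42 and 7.49 with DMSO. Every AAPK array was higher, by little more than the spread within a group. The change was 0.18 ± 0.053 (SE, n = 3 each; adjusted p = 0.0463), a 1.13-fold rise at the edge of the threshold. It was lost whichever array was left out (0.13 to 0.21, adjusted p = 0.0558 to 0.155), in the fit of all probe sets (adjusted p = 0.0623) and when its 2 probe sets were averaged (0.11, adjusted p = 0.0755). Its other probe set was at 0.05 (adjusted p = 0.611).

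SESN3, a target of FOXO factors, had signals near the floor of the array, at the 4.2 percentile of genes. It read 3.93, 3.99 and 3.94 with AAPK and 3.91, 4.04 and 3.88 with DMSO, so the groups overlapped. The log2 change was 0.01 (95% interval -0.11 to 0.13, adjusted p = 0.927). At this signal a change may not be detectable. The other probe set, dimmer still, read 3.92, 3.96 and 3.86 with AAPK against 3.66, 3.68 and 3.82 with DMSO, 0.19 higher without passing (adjusted p = 0.0539).

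The difference in change between members was taken array by array, in 6 pairs of members. SESN3 was near the floor of the array, where a fall may not be detectable. A difference from SESN3 may therefore only restate the change of the other gene. The change of SESN2 minus that of SESN1 was -1.51 ± 0.088 log2 units (SE), and minus that of SESN3 it was -1.34 ± 0.08. In both pairs the AAPK and DMSO arrays did not overlap. The two-sided exact permutation p was 0.1 in each, the smallest that 3 arrays against 3 allow, and 0.12 after adjustment over the 6 pairs, so this test cannot pass 0.05 in this design. SESN1 minus SESN3 was 0.17 ± 0.076 (exact p = 0.1, adjusted 0.12), and was -0.01 when each gene's most variable probe set was used instead, 0.01 when probe sets were averaged and 0.10 without DMSO replicate 2.

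DDIT4 had a single probe set, a bright one. It read 10.57, 10.62 and 10.53 with AAPK, against 11.67, 11.73 and 11.68 with DMSO. As with SESN2, the arrays of each group lay close together and well apart from the other group. The mean was 10.57 ± 0.047 with AAPK and 11.69 ± 0.031 with DMSO (SD, n = 3 each), a change of -1.12 ± 0.046 (SE), or 2.17-fold lower (adjusted p = 5.04e-07), rank 15 of 18132 from the lowest. The change of SESN2 minus that of DDIT4 was -0.21 ± 0.064 (exact permutation p = 0.1, adjusted 0.12), and -0.07 when the probe sets of SESN2 were averaged (exact permutation p = 0.2). Both genes kept their fall in all 15 alternatives, with ranges of -1.37 to -1.18 for SESN2 and -1.17 to -1.09 for DDIT4.

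DEPTOR, the inhibitor that binds mTOR, read 6.29, 6.45 and 6.28 with AAPK and 6.22, 6.35 and 6.34 with DMSO. These groups overlapped, and the change was 0.04 (95% interval -0.10 to 0.17, adjusted p = 0.754). Its other 2 probe sets were at -0.08 and 0.05.

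TSC1 encodes hamartin and TSC2 tuberin, the GTPase-activating subunit that acts on RHEB. TSC1 read 7.82, 7.85 and 7.88 with AAPK, against 7.96, 7.94 and 7.97 with DMSO. The arrays did not overlap, but the change of -0.10 ± 0.043 did not pass (adjusted p = 0.159), and its 3 other probe sets were at -0.04 to -0.03. TSC2 read 7.29, 7.42 and 7.33 with AAPK and 7.32, 7.48 and 7.33 with DMSO, a change of -0.03 (95% interval -0.16 to 0.10, adjusted p = 0.803) with overlapping groups. TSC1 minus TSC2 was -0.07 ± 0.071 (exact permutation p = 0.3), with -0.13 to 0.00 over the alternatives.

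RHEB, the GTPase that activates mTORC1, read 11.40, 11.37 and 11.48 with AAPK, against 11.24, 11.25 and 11.27 with DMSO. Every AAPK array was higher. The change was 0.17 ± 0.046 (SE, n = 3 each; adjusted p = 0.0336), a 1.12-fold rise. In the fit of all probe sets, 3 of its 4 probe sets rose, by 0.17, 0.18 and 0.23 (adjusted p = 0.0489, 0.0340 and 0.0107), and the dimmest was at -0.02. The call on the brightest was lost with quantile normalisation (0.11, adjusted p = 0.172) and without AAPK replicate 1 or 3 or any of the DMSO replicates (0.14 to 0.17, highest adjusted p = 0.112).

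MTOR, the kinase itself, read 7.10, 7.29 and 6.98 with AAPK, against 6.85, 6.82 and 6.93 with DMSO. The lowest AAPK array stood just above the highest DMSO array. The change was 0.26 ± 0.073 (SE, n = 3 each; adjusted p = 0.0397), a 1.19-fold rise, and the spread was the widest of the members, with an SD of 0.156 over the AAPK arrays. Its other probe sets, at 0.02 and 0.14, did not pass (adjusted p = 0.858 and 0.361). The call was lost when its 3 probe sets were averaged (0.14, adjusted p = 0.0762) and without AAPK replicate 1 or 2 or DMSO replicate 1 or 2 (0.17 to 0.27, highest adjusted p = 0.116).

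RPTOR read 7.03, 7.03 and 7.10 with AAPK and 7.04, 7.13 and 7.10 with DMSO. Its groups overlapped, with a change of -0.04 (95% interval -0.14 to 0.07, adjusted p = 0.685). The 5 other probe sets lay between -0.11 and 0.13, and none of the 6 passed. MTOR minus RPTOR was 0.29 ± 0.116 (exact permutation p = 0.1, adjusted 0.12), with no overlap of the arrays. It was 0.17 when the probe sets of each gene were averaged, and 0.20 to 0.39 when an array was left out, lowest without AAPK replicate 2 and highest without AAPK replicate 3.

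**Figure D2:**
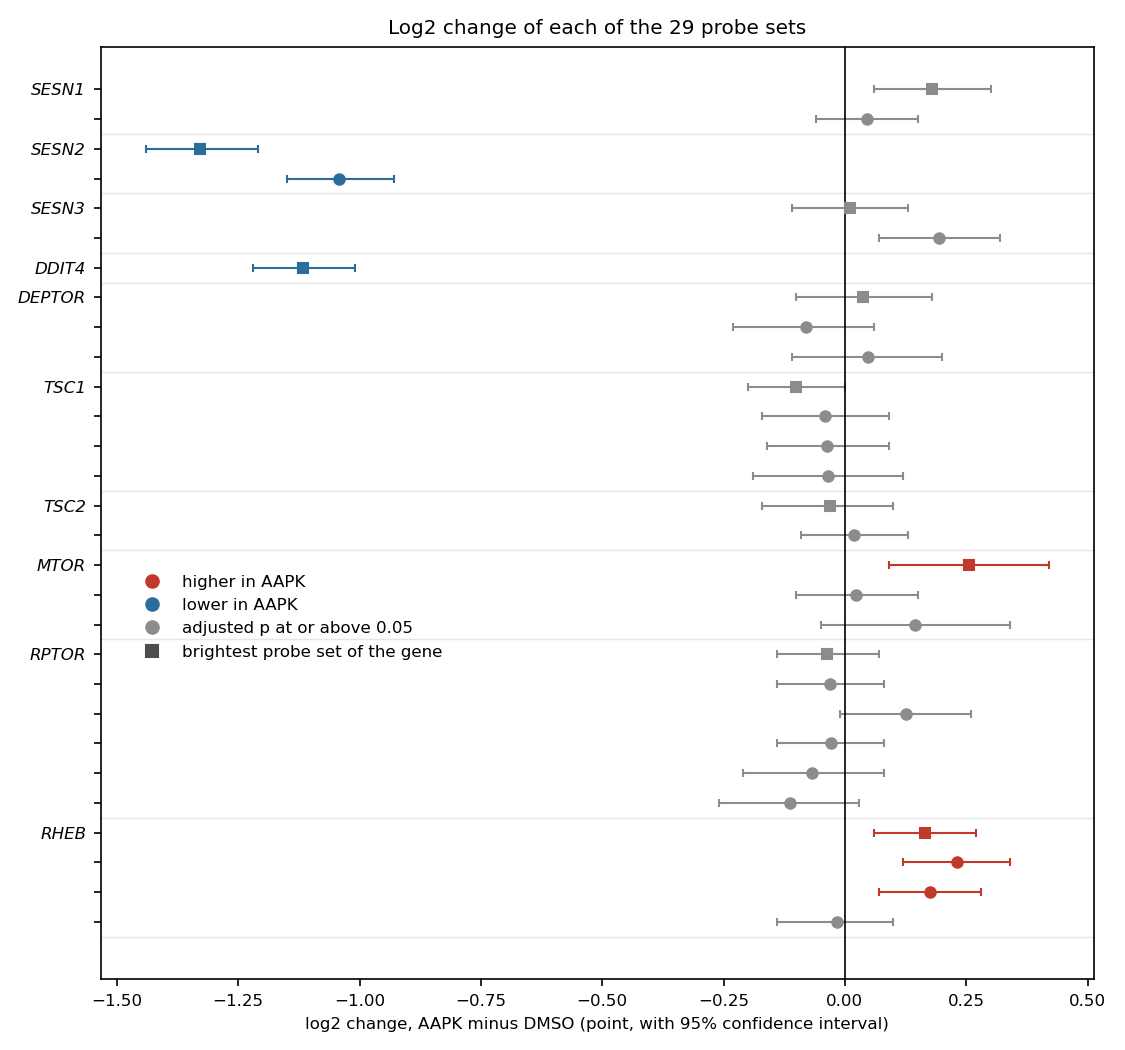
Log2 change, AAPK minus DMSO, of each of the 29 probe sets with its 95% confidence interval, from the fit across 44988 probe sets; squares mark each gene's brightest probe set, and that of SESN1 is grey because its adjusted p was 0.0623 in this fit. Both SESN2 probe sets and the DDIT4 probe set lie between -1.33 and -1.04, and the other 26 lie between -0.11 and 0.26.

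Over the 29 probe sets, 4 rose (3 of RHEB, 1 of MTOR), 3 fell (both of SESN2 and that of DDIT4) and 22 did not pass. Across all 44988 probe sets 12.9% passed, 7.13% higher and 5.82% lower. The groups did not overlap for 10 of the 29, against 29.6% of all probe sets. Probe sets of 1 gene share its transcripts and are not independent.

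Among the other signalling genes of the pathway none changed by as much as SESN2 or DDIT4. In 8 lists, 73 of 80 genes were measured, of which 9 rose and 11 fell. That is 27.4% past the threshold, against 15.4% of all genes, with a median log2 change of -0.02 in both. Their changes ran from -0.55 to 0.38. Of the 73 genes, 56 lay above the median gene signal, so the 15.4% is not a share among genes of like signal. With only genes at or above the 50th percentile of signal fitted, 1727 rose and 1310 fell, against 1471 and 1317 in the fit of all genes. The filtered fit held fewer genes, with its own variances and adjustment. Its counts therefore do not give the share of brighter genes past the threshold in the main fit. That share was not computed, so the 27.4% has no comparison among genes of like signal.

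Among the 9 other parts of the mTOR complexes and their assembly factors, 0 rose and 2 fell, with a median of -0.09. PRR5L, a partner of mTORC2, fell by 0.39 (adjusted p = 5.34e-04). TTI1, an assembly factor of mTOR-type kinases, fell by 0.19 (adjusted p = 0.0254), a call lost when any array other than AAPK replicate 1 was left out (-0.19 to -0.15). MLST8, the subunit shared by both complexes, was at 0.00 (adjusted p = 0.995), and its 3 other probe sets were at -0.11 to -0.05.

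Sestrins act through GATOR1, GATOR2 and KICSTOR. Of 11 measured genes of these complexes, 2 rose and 0 fell (median -0.06), which is 18.2% past the threshold and near the 15.4% of all genes. Both that rose encode GATOR2 subunits: SEC13, which also serves in vesicle coats and nuclear pores, by 0.33 (adjusted p = 0.00102) and WDR59 by 0.19 (adjusted p = 0.0202). The WDR59 call was lost when any array other than DMSO replicate 3 was left out (0.16 to 0.19) and when its probe sets were averaged (0.08).

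Of 12 Rag, Ragulator and related genes, 3 rose and 1 fell (median 0.05). RRAGC, a Rag GTPase, fell by 0.42 (adjusted p = 5.39e-04), and its 3 other probe sets were lower still, at -0.66 to -0.56. RRAGA, a Rag GTPase that pairs with it, rose by 0.28 (adjusted p = 0.00243), as did LAMTOR2, a Ragulator subunit that anchors the Rags (adjusted p = 0.00464). Partners in 1 complex moved in opposite directions.

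Of the 4 other amino acid sensors 0 passed in limma, with 2 at an unadjusted p under 0.05. Among 3 further TSC, RHEB and REDD family genes, RHEBL1, a RHEB relative, fell by 0.24 (adjusted p = 0.00356), and DDIT4L, the DDIT4 paralog, chosen after its value was seen, was at -0.03 (adjusted p = 0.79).

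Of 9 measured genes in the growth factor branch to TSC2, 1 rose and 0 fell. That gene was AKT1, a kinase that inactivates TSC2, at 0.18 (adjusted p = 0.0488), lost when any array other than AAPK replicate 3 was left out (0.16 to 0.21), with robust variances (adjusted p = 0.0506) and when its probe sets were averaged (0.10). Of 10 LKB1 and AMPK genes, 1 rose and 1 fell. PRKAB2, an AMPK subunit, fell by 0.23 (adjusted p = 0.00658), with its other probe sets at -0.15 and -0.02. CAB39, a partner of LKB1, rose by 0.18 (adjusted p = 0.0396), a call lost when any array other than AAPK replicate 1 was left out (0.15 to 0.20).

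mTORC1 substrates and effectors had the most calls of the signalling lists by count, with 2 higher and 6 lower of 15 (median -0.05). That is 53.3% past the threshold, against 15.4% of all genes, but all 15 lay above the median gene signal. The 2 that rose, named after their values were seen, were EIF4E and LPIN1. EIF4E rose by 0.38 (adjusted p = 4.07e-04), with its 6 other probe sets at -0.24 to 0.53. LPIN1 rose by 0.18 (adjusted p = 0.0336), with -0.02 and 0.14 on its other probe sets. GRB10, a growth factor adaptor that mTORC1 phosphorylates, fell by 0.55 (adjusted p = 5.85e-05), with -0.65 and -0.38 on its other probe sets. ULK1, the autophagy kinase that mTORC1 holds back, fell by 0.49 on its single probe set (adjusted p = 7.84e-04). EIF4EBP1, which encodes the translation repressor 4E-BP1 and is itself a known ATF4 target, fell by 0.42 (adjusted p = 2.75e-04), with its other probe sets at -0.43 and -0.31. RPS6KB1, which encodes the S6 kinase, fell by 0.32 (adjusted p = 0.00598), but its 6 other probe sets ran from -0.32 to 0.13 and their mean with it did not pass (-0.08, adjusted p = 0.373).

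**Figure D3:**
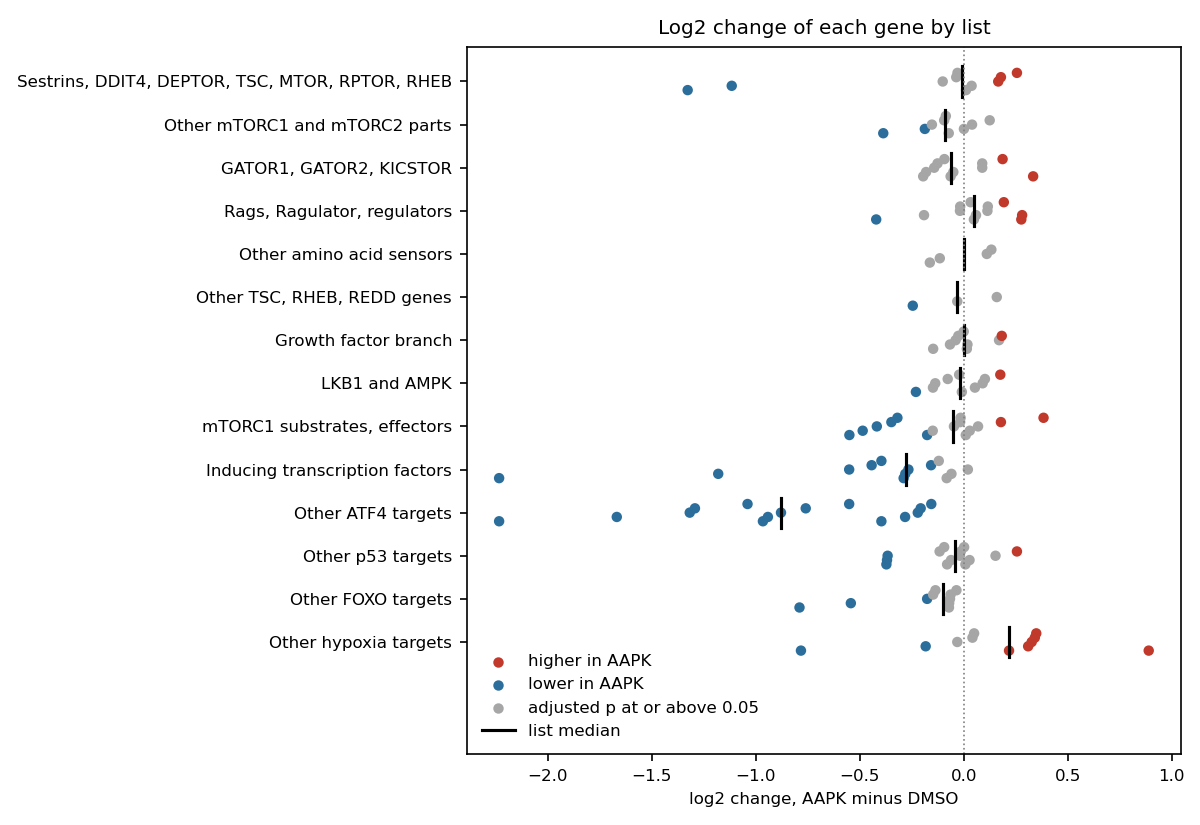
Log2 change, AAPK minus DMSO, of each gene (brightest probe set) in the set and in 13 further lists; colour marks the genes past an adjusted p of 0.05 and the black bar the list median. SESN2 and DDIT4 stand apart from the signalling lists, which run from -0.55 to 0.38. They lie within the range of the other ATF4 targets, -2.23 to -0.16, and of the inducing transcription factors, -2.23 to 0.02.

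Transcripts of the transcription factors known to induce sestrins or DDIT4 were mostly lower. Of 13 measured, 0 rose and 9 fell, with a median of -0.28. Protein levels and activities, of these factors or of mTORC1, were not measured on these arrays. DDIT3, which encodes CHOP, and CEBPB, a C/EBP factor, fell by 2.23 and 1.18, and ATF4, the main factor of the amino acid response, fell by 0.55 (adjusted p = 1.88e-08, 5.04e-07 and 3.64e-05). FOXO3, an inducer of SESN3, fell by 0.28 (adjusted p = 0.0158), a call lost without AAPK replicate 1 or 3 (both -0.26). HIF1A, the oxygen-regulated factor that induces DDIT4, had a change of -0.08 (adjusted p = 0.352).

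The known targets of these factors did not move alike. All 15 other ATF4 targets fell, with a median of -0.88. TRIB3, a stress-induced pseudokinase, and CEBPG, a bZIP partner of ATF4, fell by 1.67 and 1.32. The list includes DDIT3 itself, which is also on the factor list, and its fall was known from earlier results of these arrays, so it is no independent evidence of direction.

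Other p53 targets, of which SESN1 and SESN2 are known members, had 1 higher and 3 lower of 14 (median -0.04). XPC, a DNA repair factor, fell by 0.37 (adjusted p = 9.77e-04), as did TNFRSF10B, a TRAIL receptor (adjusted p = 5.09e-04), and BBC3, which encodes the cell death protein PUMA (adjusted p = 0.0291). The BBC3 call was lost without AAPK replicate 2 or 3 or DMSO replicate 3 (-0.38 to -0.26), and its other probe set was at -0.04. The gene that rose, named after its value was seen, was AEN, by 0.26 on its single probe set (adjusted p = 0.00359). CDKN1A, the p21 gene, and MDM2, the main p53 inhibitor, were at 0.01 and -0.02 (adjusted p = 0.941 and 0.887), and with quantile normalisation at -0.04 and 0.00.

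Among 10 other FOXO targets 0 rose and 3 fell (median -0.10). TXNIP, a thioredoxin inhibitor, fell by 0.79 (adjusted p = 1.83e-06) and KLHL24, a ubiquitin ligase adaptor, by 0.54 (adjusted p = 4.25e-04), with -0.22 and -0.21 on its other probe sets. PDK4, a kinase that restrains pyruvate oxidation, fell by 0.18 (adjusted p = 0.0416). Its call was lost when any array other than AAPK replicate 3 was left out (-0.19 to -0.14) and with median centring (-0.16, adjusted p = 0.0702).

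Other hypoxia targets, a group to which DDIT4 also belongs, went mostly the other way from it, with 6 higher and 2 lower of 11 (median 0.22). NDRG1, a stress-induced growth regulator, rose by 0.89 and KDM3A, a histone demethylase, by 0.35 (adjusted p = 1.12e-05 and 0.00289). VEGFA, the vascular growth factor, fell by 0.78 (adjusted p = 3.03e-06), with its 9 other probe sets at -0.73 to -0.08. How far any of these factors bears on SESN2 or DDIT4 was not tested.

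Likeness of pattern was measured as the distance between log2 profiles over the 6 arrays, each centred on its own mean, among 9060 other genes above the median signal. Nearest to SESN2 were MAT2A (distance 0.145 log2 units), which makes S-adenosylmethionine, STC2 (0.164), a secreted glycoprotein of the ATF4 list, and PMAIP1 (0.190), which encodes NOXA. Their log2 changes were -1.41, -1.29 and -1.29; the 5 other MAT2A probe sets ran from -2.12 to 0.59. Nearest to DDIT4 were CEBPB (0.098), TUBE1 (0.113), a centriolar tubulin, and TSC22D3 (0.122), the glucocorticoid-induced leucine zipper GILZ, with changes of -1.18, -1.13 and -1.04. With 2 groups of 3 arrays, such nearness mostly restates a change of like size, and no p is given.

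**Figure D4:**
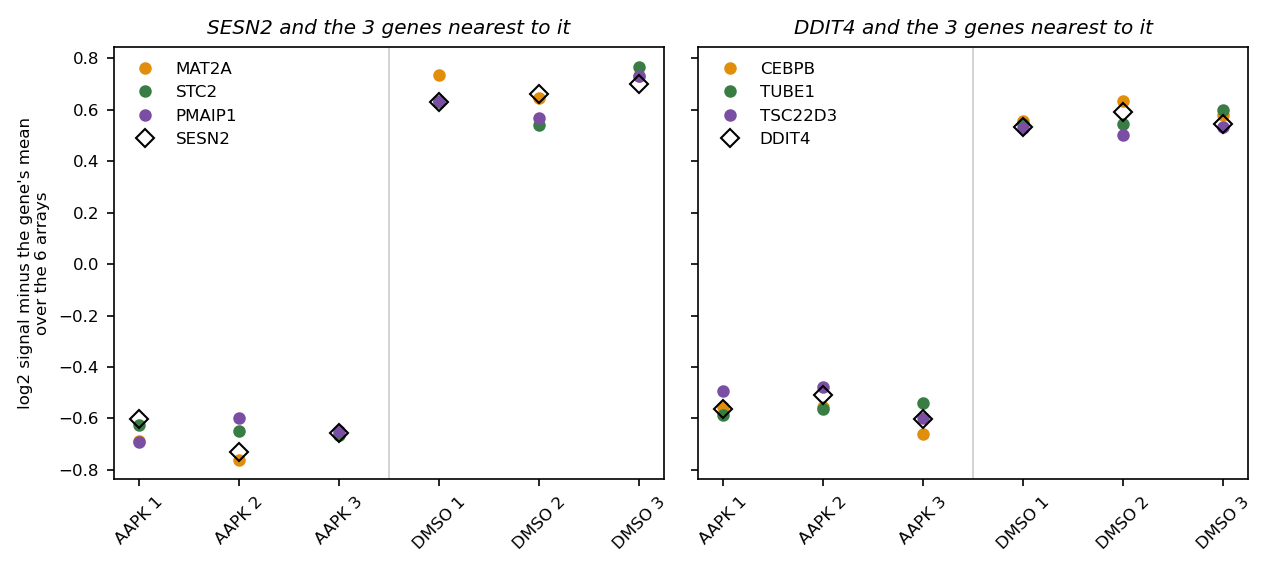
Log2 signal of SESN2 (left panel) and DDIT4 (right panel) on each array, minus the gene's mean over the 6 arrays, with the 3 genes nearest to each; open diamonds are SESN2 and DDIT4. All 8 profiles stay between -0.76 and -0.48 on the AAPK arrays and between 0.50 and 0.77 on the DMSO arrays.

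The genes nearest to the members with small rises had changes as small. SESN1 was nearest to WWP1, a ubiquitin ligase (distance 0.040, log2 change 0.18, adjusted p = 0.058), MTOR to PPP2R5E, a phosphatase subunit (0.051, change 0.25, adjusted p = 0.0234, lost without AAPK replicate 1 or 2 or DMSO replicate 1 or 2 at 0.19 to 0.27), and RHEB to DGUOK, a mitochondrial nucleoside kinase (0.025, change 0.18, adjusted p = 0.0246). The DGUOK call was lost with quantile normalisation (0.11) and without AAPK replicate 1 or 3 or DMSO replicate 1 or 2 (0.15 to 0.19). The next in order were SH3PXD2A and KIF9 for SESN1, RNASEH1 and PWP1 for MTOR, and CISD2 and CACYBP for RHEB, all with changes of 0.15 to 0.30. Other probe sets were at -0.03 to 0.01 for WWP1, -0.09 to 0.14 for SH3PXD2A and -0.08 to -0.05 for KIF9. They were at 0.02 to 0.22 for PPP2R5E, -0.07 to 0.27 for PWP1, 0.01 for CISD2 and -0.07 to 0.09 for CACYBP. CACYBP did not pass in limma (adjusted p = 0.0527), and the CISD2 call was lost whichever array was left out.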

How the data were processed

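Total RNA from the cells was hybridised to Affymetrix PrimeView arrays, the platform of the probe annotation, 3 per group. The authors deposited log2 signal values, 1 per probe set and array, from 2.83 to 14.25 with 0 missing; how they were background-corrected, normalised and summarised is not given in the sources used here. Array medians were close, so a change is relative to the array as a whole. Probe sets were named from the platform annotation: 44988 of 49395 name 1 gene, 1832 several, 2473 none and 102 are controls. Of those naming 1 gene, 44961 matched RefSeq by Entrez ID.

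Each gene was represented by its probe set with the highest mean signal. AAPK was compared with DMSO in limma 3.58.1 (lmFit and eBayes, R 4.3.3), without a block or a filter, across 18132 genes and again across 44988 probe sets, with Benjamini-Hochberg adjustment and a threshold of 0.05. Pairs of members were compared by a two-sided exact permutation test (scipy 1.17.1). The code of the fit was also run on simulated data with independent noise and fewer changed genes than were called here. How well small changes were recovered there is not reported. With 3 arrays a group, precision is limited by their number. Same-numbered arrays did not deviate together (r = -0.019, -0.227 and -0.047), so the replicate numbers were not taken as pairs.

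Named beside the members were, from each list, the 3 genes with the largest change past the threshold, a few regulators whatever their values, the kinases of the title, and the 3 genes nearest in profile to each member that passed. The members and lists were chosen with earlier results of these data known. VIM and CDH2 were looked up, and DDIT4L, EIF4E, LPIN1 and AEN were named, after values were seen. List genes without a probe set naming them alone were not analysed here. Alternatives were quantile normalisation, median centring, filters at the 25th and 50th percentile of signal, an intensity trend, robust variances, a replicate block, other ways of choosing probe sets and leaving out each array.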

Additional observations from a re-analysis of the deposited data

How the results depend on the processing

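SESN2 and DDIT4 passed in every alternative run, and the count of member genes that fell was 2 in each. The 3 small rises were less stable: the count of member genes that rose was 1 with the mean of probe sets and 0 to 1 when an array was left out. With the replicate block, which the arrays' deviations gave no ground for, it was 0 (SESN1 adjusted p = 0.101, MTOR 0.0796, RHEB 0.0717). Member probe sets that rose, 4 in the report, were 6 with median centring and with the intensity trend, 5 with either signal filter, 3 with robust variances, 2 with quantile normalisation, 1 with the replicate block and 1 to 2 without an array. Genes over all the pathway lists that rose, 16, were 10 to 16 without an array, lowest without DMSO replicate 1. Probe sets that fell among the 44988 naming 1 gene, 2618, were 1723 to 2255 without an array, lowest without AAPK replicate 1. In the other alternatives they ran from 2063 with the replicate block to 2995 with the intensity trend. The change of SESN1 minus that of SESN3 was -0.01 with each gene's most variable probe set (exact permutation p = 0.7) and 0.10 to 0.22 without an array. The cause of these shifts was not tested, apart from the fewer samples when an array is left out.

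Changes close to 0 that did not pass also turned sign. MLST8 was at -0.02 with quantile normalisation, -0.06 with the mean of probe sets, -0.08 on the probe set with the largest spread and -0.02 to 0.01 without an array. CDKN1A was at -0.04 with quantile normalisation and 0.00 to 0.03 without an array; MDM2 was at 0.00 with quantile normalisation and median centring, and -0.05 to 0.03 without an array. Without an array, TSC2 ran from -0.07 to 0.02, SESN3 from -0.02 to 0.06 and DEPTOR from -0.02 to 0.07. Of other probe sets, the dimmest of RHEB was at 0.01 with quantile normalisation, 0.00 with median centring and -0.06 to 0.02 without an array. Without an array, 3 of TSC1 ran from -0.08 to 0.01, -0.11 to 0.02 and -0.06 to 0.01, 1 of TSC2 from -0.01 to 0.05, 1 of DEPTOR from -0.02 to 0.12 and 1 of MTOR from -0.02 to 0.07. SESN3 was near the floor of the array, where signal over background limits what can be seen.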
